A study of Mus musculus with 3 samples.

Results

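The genes of the cardiac thin filament described here were troponin T (Tnnt2), the cardiac and slow skeletal troponins I (Tnni3 and Tnni1), troponin C (Tnnc1), the tropomyosins Tpm1, Tpm2 and Tpm3, cardiac alpha-actin (Actc1), tropomodulin 1 (Tmod1) and leiomodin 2 (Lmod2). Every gene probe that the array names after 1 of these 10 genes was taken, whatever its value, which gave 17 probes out of 41174 on the array. All 17 probes lay well above the local background on every array, in Cy3 as in Cy5, and passed the signal minimum of 20, which 29576 probes did in all. Of the 17, 3 probes were saturated in both channels of all arrays, 2 were saturated in some channels or arrays, and 12 were never saturated. A saturated spot is one that reached the brightest value the scanner can record, so its true signal is only known to be at least that high.

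Each of 3 arrays read in 2 colours (arrays 1 to 3, the replicates of the labels) compared RNA pooled from the hearts of 2 Lrrc10-/- mice, labelled with Cy5, against RNA pooled from 2 Lrrc10+/+ (WT) hearts, labelled with Cy3. All mice were of the C57/BL6 strain and 2 months old, with no other allele or agent in any group, and Lrrc10 encodes a leucine-rich repeat protein of cardiomyocytes. No array had the dyes exchanged, so a difference between dyes and a difference between genotypes cannot be told apart. The study's methods describe 3 independent biological replicates, and the labels call the WT RNA a reference pool. If arrays shared a WT pool, p-values leave out the spread between WT hearts.

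The thin filament is the actin-based part of the sarcomere. Tropomyosin lies along the actin strand and, at rest, covers the sites that myosin binds. When calcium binds troponin C, troponin I lets go of actin, troponin T passes the movement on to tropomyosin, and the sites open. Tropomodulin and leiomodin act at the pointed end of the filament and set its length, and many inherited cardiomyopathies arise from variants of these proteins.

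The results turn on how a gene's saturated probe compares with its other probe, so the sequences of the saturated probes and of their partners are given as the array files list them, 5′ to 3′. Each probe had 60 bases. For Tnnt2 the saturated probe is given whole and the unsaturated one by its first 30 bases, since the array assigns the latter to a cDNA clone and not to the curated transcript:
Tnnt2 A_51_P338262: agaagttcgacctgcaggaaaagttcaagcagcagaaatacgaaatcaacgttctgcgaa
Tnnt2 A_52_P430110, first 30 bases: taatcttgacattctgtttcatacaccaca

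Both Tnni3 probes carried saturated spots and read different stretches of the same transcript:
Tnni3 A_51_P386983: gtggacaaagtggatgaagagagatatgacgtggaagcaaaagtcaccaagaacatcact
Tnni3 A_52_P563123: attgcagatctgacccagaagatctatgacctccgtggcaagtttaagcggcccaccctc

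The saturated Tpm1 probe overlaps, when the 2 sequences are laid side by side without gaps, the unsaturated probe A_52_P418477 of Tpm2. Of 33 overlapping bases 27 were identical (81.8%), and capitals mark these identical bases, the longest unbroken run being 9 bases:
Tpm1 A_52_P532910: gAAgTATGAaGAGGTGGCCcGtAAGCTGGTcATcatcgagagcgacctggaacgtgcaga
Tpm2 A_52_P418477: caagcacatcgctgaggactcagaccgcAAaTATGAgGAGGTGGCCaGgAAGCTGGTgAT
Tpm1 A_52_P44949, first 30 bases: cttcatagagtttaggcatgcagtttgctt

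Among the 136 pairs of member probes, 1 shared a run of at least 15 bases. It was the Tmod1 pair, in which the last 22 bases of probe A_51_P297069 are the first 22 of probe A_51_P297068. The shared run, in capitals because all of it is common to both, shows that these probes read in part the same bases of Tmod1, and how far their values depend on each other was not tested:
Tmod1, shared run: GTGAAAGCTTTTTCTTTAGGCA

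The labels were checked on the Lrrc10 probe first. Its Cy3 processed signal (after background subtraction and dye normalization) was 476, 443 and 352 on arrays 1, 2 and 3, and its Cy5 signal was 14283, 20828 and 17703. The Cy5 channel, labelled Lrrc10-/-, was thus the brighter one on every array, by 5.37 ± 0.41 on the log2 scale (SD, n = 3 arrays; limma, adjusted p = 0.00025; 0.097 without array 2), which goes against the labels. Where this probe lies relative to the deleted part of the gene is not given in the sources used here. For that reason directions are given by channel, "Cy5 (labelled Lrrc10-/-)" or "Cy3 (labelled WT)". All log2 ratios are of Cy5 over Cy3, so a negative value means brighter in the channel labelled WT, and read by the labels that is opposite to the direction the study gives for cardiac contractile transcripts, and for Myh7 and Nppa.

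No thin filament probe passed the test in either direction. The test, limma's moderated test of the mean log2 ratio against 0 with Benjamini-Hochberg adjustment over 29576 probes, called 0 of the 17 as brighter in Cy5 and 0 as brighter in Cy3. Over all probes tested the calls were 2 in Cy5 (0.00676%) and 0 in Cy3 (0.0%). Without array 3 they were 377 in Cy5 and 134 in Cy3, without array 1 they were 1 and 0, without array 2 they were 0 in both, and the members called stayed at 0 in each of these fits. Before adjustment, 1 of the 17 members had a p under 0.05, against 3.07% of all probes, and it was the saturated Tnnt2 probe. A second rule followed the study's selection of a ratio of at least 1.2 in the same direction on all 3 arrays, with its threshold of p under 0.05 taken here as the array's own p on each of them. It took 1 member in Cy3, again the saturated Tnnt2 probe, where 0.511% of all probes were taken, and 0 members in Cy5, where 0.406% were. Judged by the array's own p alone, 3 members were brighter in Cy5 and 4 in Cy3 on array 1, where 12.1% and 13.0% of all tested probes were. On array 2 these counts were 1 and 5, beside 18.9% and 18.6% of all probes, and on array 3 they were 1 and 2, beside 14.8% and 13.7%. The plot of ratios by probe shows all of these values.

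**Figure D1:**
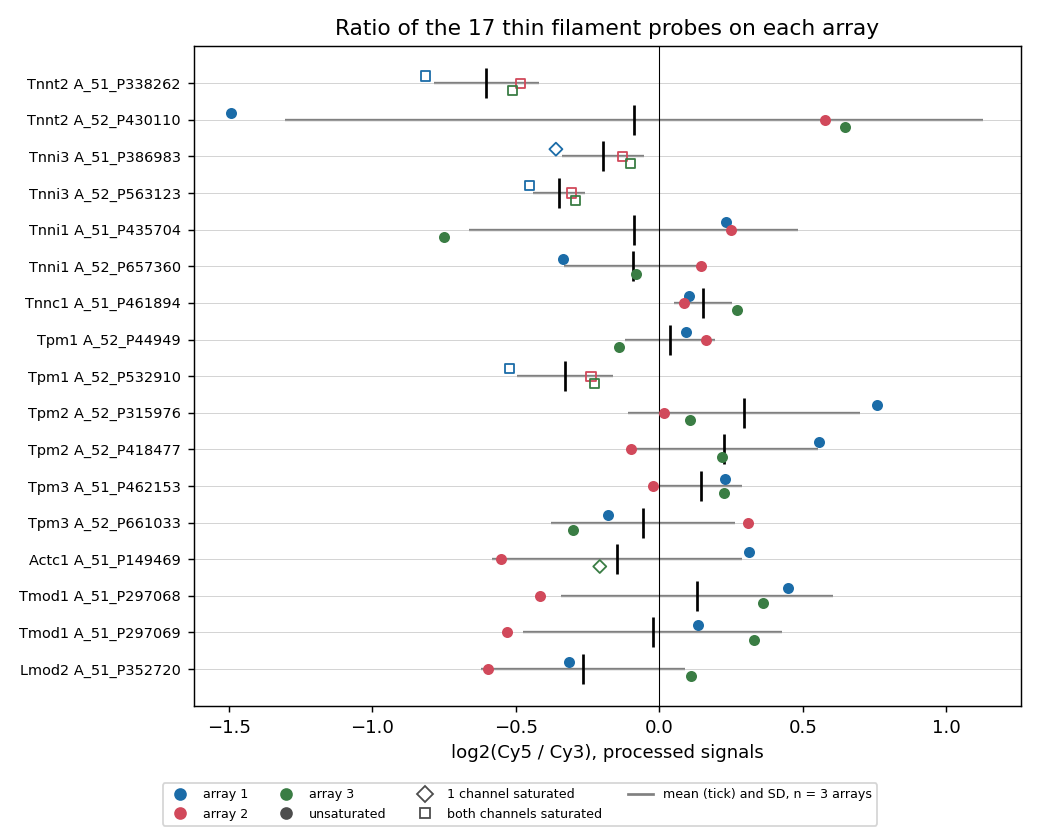
Log2 ratio of processed Cy5 over Cy3 signal (x axis) for the 17 probes (rows) on arrays 1 to 3 (colours). Filled circles are unsaturated spots, open diamonds have 1 saturated channel and open squares have both channels saturated; the tick is the mean and the grey line the SD over 3 arrays. All 11 spots drawn as open squares lie below 0, and most unsaturated probes have spots on both sides of 0.

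The sign of a ratio on all 3 arrays divided the members by saturation. Of the 17 probes, 4 were brighter in Cy3 on all 3 arrays, where 11.0% of all tested probes were, and 2 were brighter in Cy5 on all 3, where 10.0% were. The 4 in Cy3 were the Tnnt2, Tnni3 and Tpm1 probes with saturated spots. The 2 in Cy5 were the Tnnc1 probe and Tpm2 probe A_52_P315976, both unsaturated. Among the 12 unsaturated members 0 were brighter in Cy3 on all arrays and 2 in Cy5, where 10.8% and 10.1% of all unsaturated probes were. The median of the mean log2 ratios was -0.09 over all 17 members, -0.33 over the 5 with any saturated spot and 0.01 over the 12 unsaturated ones, beside 0.00 over all probes tested. With normexp background correction and median centring together in place of the array software's steps, 8 members lay above 0 on every array and 0 lay below it on every array, where 41.2% and 11.6% of all tested probes did, and the median of all tested probes itself moved to 0.15. With normexp and loess the counts were 2 and 5 (16.7% and 15.3% of all probes), and with unnormalized signals centred on the median they were 4 and 5 (22.6% and 8.65%). With the saturated probes left out the count in Cy3 could only be 0, since the 4 probes in Cy3 all had saturated spots.

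Troponin T, which ties the troponin complex to tropomyosin, had a probe at the scanner limit and a dim one. The saturated Tnnt2 probe read a mean signal of 65244 in Cy3 and 65262 in Cy5 on each of the 3 arrays, and every pixel of every spot was saturated. Its channels were therefore equal before normalization. After the array software's processing its log2 ratio was -0.81, -0.48 and -0.51 on arrays 1, 2 and 3, with array p-values of 0.000178, 0.0206 and 0.0147. No fold change is given for it, since both channels only have a lower bound on all arrays.

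The unsaturated Tnnt2 probe had processed signals of 1421, 671 and 679 in Cy3 and 505, 1002 and 1063 in Cy5. Array 1 was dimmer in Cy5 and arrays 2 and 3 were brighter, with log2 ratios of -1.49, 0.58 and 0.65. Each array alone gave a small p for its own direction (1.4e-09, 0.0063 and 0.0023), and these directions opposed each other. The mean of -0.09 ± 1.22 (SD, n = 3 arrays) had the widest interval among the unsaturated members, from -1.02 to 0.84 (95%, limma), and its adjusted p was 1.00. Without array 1 the mean turned to 0.61.

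Troponin I holds the complex on actin at rest. Both probes of Tnni3, the form of the adult heart, were bright enough to saturate. Probe A_52_P563123 was saturated in both channels of all arrays and had log2 ratios of -0.45, -0.31 and -0.29. Probe A_51_P386983 was saturated in every Cy5 spot and in the Cy3 spots of arrays 2 and 3, and had log2 ratios of -0.36, -0.13 and -0.10. Its Cy3 spot on array 1 carried no saturation flag, with a mean signal of 59633, but 10 of its 58 pixels were saturated. The ratios of both probes lay below 0 on every array. As for Tnnt2, no fold change is given.

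Tnni1 encodes the slow skeletal troponin I, which the heart makes before birth and replaces with Tnni3 afterwards. Its 2 probes were dim. Probe A_51_P435704 had processed signals of 75.8, 67.3 and 109.5 in Cy3 and 89.1, 80.1 and 65.1 in Cy5, which gave log2 ratios of 0.23, 0.25 and -0.75. Probe A_52_P657360 had 236, 184 and 209 in Cy3 and 187, 203 and 198 in Cy5, or log2 ratios of -0.34, 0.14 and -0.08. Each probe changed direction between arrays, and on arrays 1 and 3 the probes were far apart, by 0.57 and 0.67. The mean log2 ratio was -0.09 for each, with SDs of 0.57 and 0.24 (n = 3 arrays).

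Tnnc1 encodes the calcium-binding troponin C shared by heart and slow skeletal muscle. Its probe was bright but never saturated, with mean signals of 20436, 28391 and 23827 in Cy3 and 39212, 38798 and 36989 in Cy5. The processed log2 ratios were 0.10, 0.08 and 0.27, all above 0. The mean of 0.15 ± 0.10 (SD, n = 3 arrays) was the least variable among the unsaturated members. Its 95% interval, from -0.28 to 0.58, held 0 (limma, adjusted p = 1.00).

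**Figure D2:**
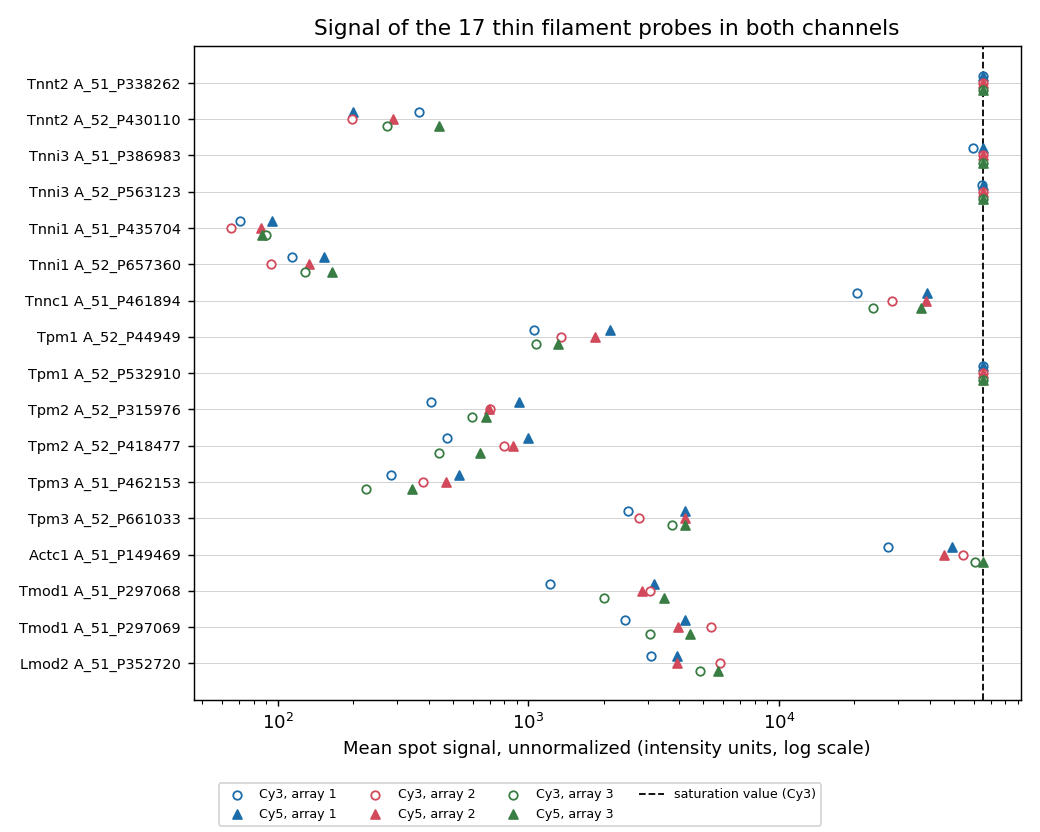
Mean unnormalized spot signal (x axis, log scale, intensity units) of the 17 probes in Cy3 (open circles) and Cy5 (triangles) on arrays 1 to 3 (colours), with the Cy3 saturation value of 65227 as a dashed line. The Tnnt2, Tnni3 and Tpm1 probes with saturated spots sit at or close to the line, except the Cy3 spot of Tnni3 A_51_P386983 on array 1 (59633), and the Tnnc1 probe lies below it on all arrays.

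Tropomyosins are the coiled coils that lie along actin, and Tpm1 gives the main form of the mouse heart. The saturated Tpm1 probe read 65243 or 65244 in Cy3 and 65261 or 65262 in Cy5 and had processed log2 ratios of -0.52, -0.24 and -0.22. The other Tpm1 probe had processed signals of 3356, 4309 and 2469 in Cy3 and 3574, 4819 and 2240 in Cy5. Its log2 ratios were 0.09, 0.16 and -0.14, with a mean of 0.04 ± 0.16 (SD, n = 3 arrays). Thus the probe at the scanner limit lay below 0 on all arrays and the dimmer, unsaturated one lay on both sides of it.

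Tpm2 encodes the beta form, which muscle with slow fibres makes, and its 2 probes moved together across arrays. Probe A_52_P315976 had log2 ratios of 0.76, 0.02 and 0.11, from processed signals of 1497, 2645 and 1593 in Cy3 and 2532, 2678 and 1713 in Cy5. Probe A_52_P418477 had log2 ratios of 0.56, -0.10 and 0.22, from 1541, 2715 and 1045 in Cy3 and 2266, 2538 and 1216 in Cy5. On array 1 both were well above 0, with array p-values of 0.00043 and 0.0082, and on array 2 both were close to 0. The means were 0.29 ± 0.40 and 0.23 ± 0.33 (SD, n = 3 arrays), the 2 highest among the members, and without array 1 each was 0.06. Neither passed the test (limma, adjusted p = 1.00).

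Tpm3, a tropomyosin of slow skeletal fibres and of the cytoskeleton, gave opposite patterns on its 2 probes. Probe A_51_P462153, with processed signals of 683, 998 and 404 in Cy3 and 800, 983 and 473 in Cy5, had log2 ratios of 0.23, -0.02 and 0.22 and a mean of 0.14 ± 0.14 (SD, n = 3 arrays). Probe A_52_P661033, with 8128, 8929 and 8873 in Cy3 and 7177, 11049 and 7206 in Cy5, had -0.18, 0.31 and -0.30 and a mean of -0.06 ± 0.32 (SD, n = 3 arrays). Arrays 1 and 3 were above 0 on the first probe and below it on the second, so the gene had no direction shared by its probes.

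Actc1 encodes the actin of the cardiac sarcomere, the backbone of the filament. Its only probe had mean signals of 27340, 54102 and 60513 in Cy3 and 49195, 45642 and 65262 in Cy5. The Cy5 spot of array 3 was flagged as saturated in all 58 pixels, and the Cy3 spot of that array had 8 of 58 pixels saturated. The log2 ratios were 0.31, -0.55 and -0.21, where the last, having its Cy5 signal at the limit, can only be too low as far as that channel goes. The mean of -0.15 ± 0.44 (SD, n = 3 arrays) covered both directions and had an adjusted p of 1.00 (limma).

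Tmod1 caps the pointed end of actin, and its overlapping probes gave one pattern. Probe A_51_P297068 had processed signals of 3935, 9907 and 4707 in Cy3 and 5365, 7429 and 6038 in Cy5, or log2 ratios of 0.45, -0.42 and 0.36. Probe A_51_P297069 had 7996, 17290 and 7135 in Cy3 and 8774, 11958 and 8966 in Cy5, or 0.13, -0.53 and 0.33. Array 2 was low and arrays 1 and 3 high on both. Lmod2, which lengthens the filament by adding actin at that end, had processed signals of 11291, 20578 and 12086 in Cy3 and 9084, 13608 and 13043 in Cy5. Its log2 ratios were -0.31, -0.60 and 0.11, lowest on array 2 as well, with a mean of -0.27 ± 0.36 (SD, n = 3 arrays; 95% interval -0.74 to 0.20).

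Replicate error set what could be seen. Over the 12 unsaturated members the SD across arrays ran from 0.10 to 1.22 with a median of 0.34, beside 0.39 over all tested probes. The 95% intervals of their means all held 0 and reached 0.42 to 0.93 to either side on the log2 scale, or 1.34-fold to 1.91-fold. The largest mean differences among them were 1.23-fold in Cy5 (Tpm2 A_52_P315976) and 1.2-fold in Cy3 (Lmod2), both inside these intervals. Differences of that size could not be told from 0 in these 3 arrays.

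Where a gene had 2 unsaturated probes, their disagreement was of the size seen elsewhere on the array. The widest gap between the probes on any array was 0.67 for Tnni1, 0.20 for Tpm2, 0.52 for Tpm3 and 0.31 for Tmod1 on the log2 scale. Over 4044 genes with 2 unsaturated probes well above background the median of this gap was 0.52, with quartiles of 0.32 and 0.81. Tpm2 was thus under the lower quartile, and Tmod1, whose probes share bases, just under it.

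**Figure D3:**
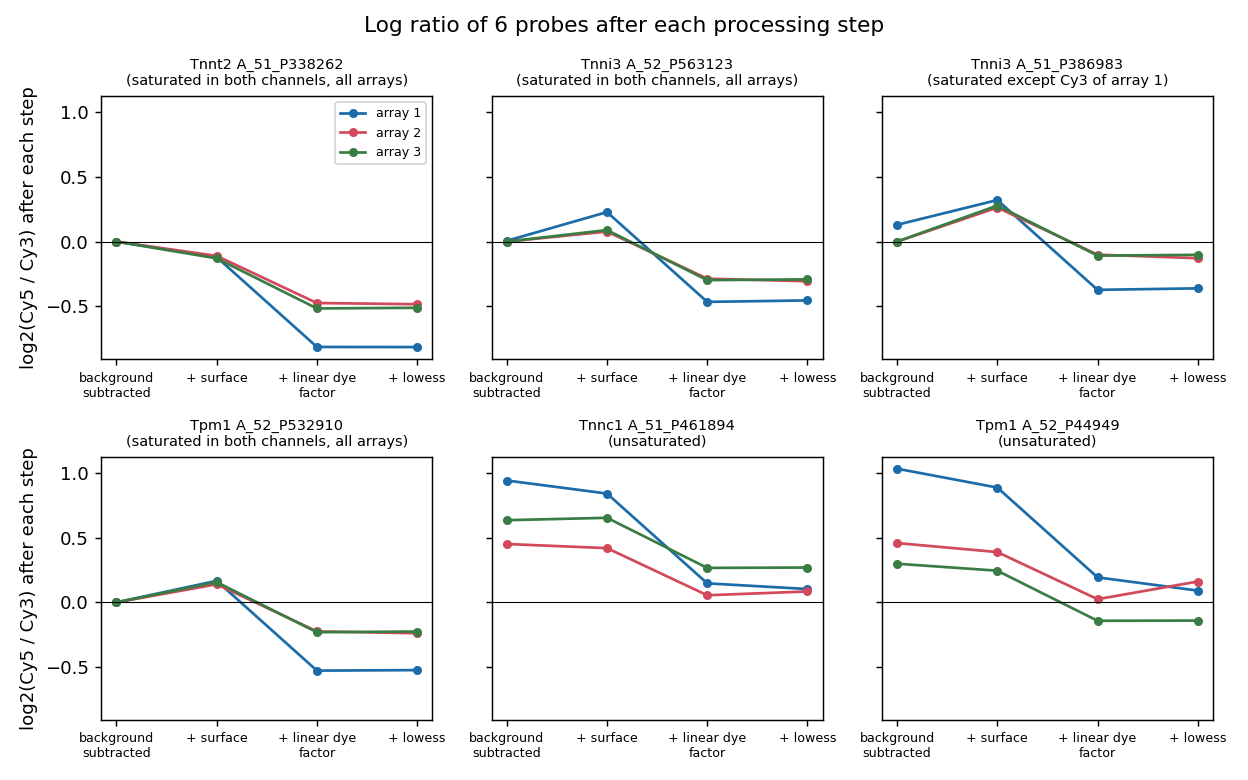
Log2 ratio of Cy5 over Cy3 (y axis) after each processing step (x axis) for 6 probes on arrays 1 to 3 (colours). The saturated Tnnt2, Tnni3 and Tpm1 probes start at or near 0 and end below it, and the unsaturated Tnnc1 and Tpm1 probes start above 0 and end near it.

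The processed ratio of each spot was then taken apart into the steps recorded for it. The log2 ratio after background subtraction, the array's spatial (multiplicative) surface at that spot, the linear dye factor of the whole array and a remainder from the intensity-dependent (lowess) step add up to the processed log2 ratio. The linear factors scaled Cy3 by 3.38, 3.58 and 2.48 and Cy5 by 2.09, 2.78 and 1.90 on arrays 1, 2 and 3. They thus shifted every log2 ratio of an array by the same amount, -0.69, -0.36 and -0.39.

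For the 3 members saturated in both channels of all arrays, the processing terms made up nearly all of the ratio. The Tnnt2 probe had 0.00 after background subtraction on all arrays, a surface term of -0.12, -0.11 and -0.13, and lowess remainders of at most 0.01, and the rest was the linear factor. The Tpm1 probe had surface terms of 0.17, 0.14 and 0.16, and Tnni3 probe A_52_P563123 had 0.22, 0.08 and 0.09, so that both ended closer to 0 than Tnnt2 did. Array 1, with the largest linear factor, gave each of these probes its lowest value. The order of Tnnt2, Tnni3 and Tpm1 within an array was therefore the order of their surface terms, which belong to the position of a spot on the glass.

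The unsaturated members entered the same steps from a different place. Before normalization their log2 ratios had medians of 0.85, 0.35 and 0.44 on arrays 1, 2 and 3, and 11, 8 and 11 of the 12 were above 0. All gene spots, including those under the signal minimum, had medians of 0.38, 0.24 and 0.28 at that stage. The members were all well above background, so the 2 sets differ in brightness. Of all unsaturated tested probes 95.5%, 79.6% and 86.6% were above 0. After processing 8, 7 and 8 of the 12 were above 0. Tnnc1, for example, went from 0.94, 0.45 and 0.63 before normalization to 0.10, 0.08 and 0.27 after it. The 3 members saturated in both channels of all arrays could not show such a starting ratio, because both of their channels were held at the limit. Tnni3 A_51_P386983, not flagged in Cy3 on array 1, started at 0.13 there.

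The same was seen in every probe of this kind on the array. Of the tested probes, 36 were saturated in both channels of all arrays, members included, and all 36 were below 0 on all 3 arrays (100.0% brighter in Cy3). Their median processed log2 ratio was -0.73, -0.41 and -0.39 on arrays 1, 2 and 3, their unnormalized log2 ratio was never further from 0 than 0.02, and their lowess remainder was at most 0.04. The 3 members in this set lay between -0.81 and -0.45 on array 1, between -0.48 and -0.24 on array 2 and between -0.51 and -0.22 on array 3. For these members the recorded signals of the 2 channels were equal to within 0.0064 on the log2 scale, and the sign of the ratio was that of the processing terms.

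**Figure D4:**
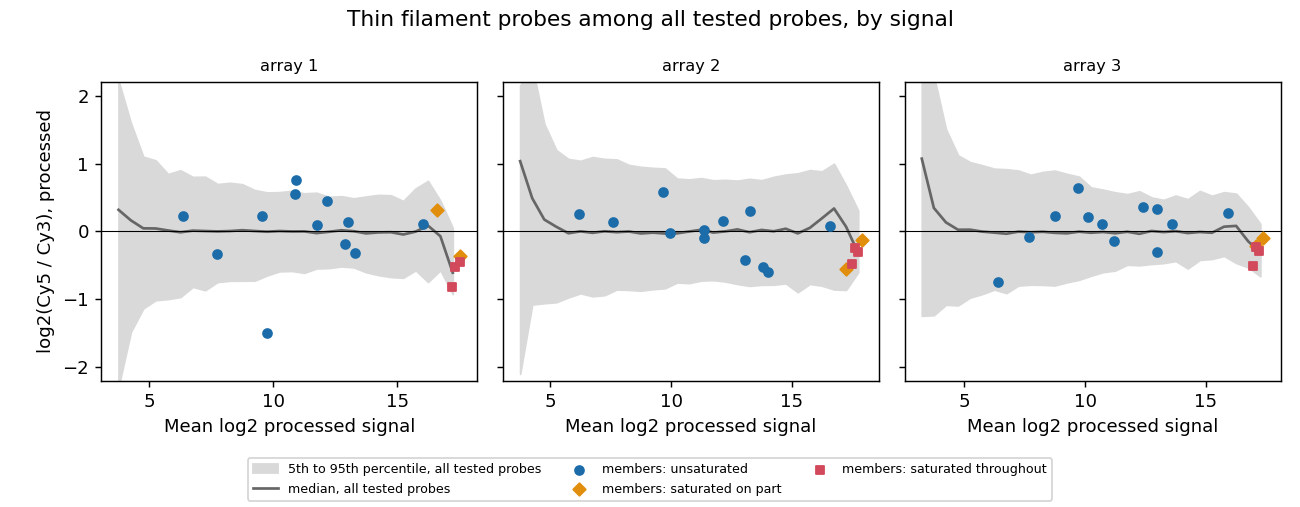
Log2 ratio of Cy5 over Cy3 (y axis) against the mean log2 processed signal (x axis) on each array, for the member probes (points, by saturation) over the median and the 5th to 95th percentile of all tested probes in bins of signal. In the last bin of each array the median of all tested probes is -0.61, -0.32 and -0.31, and the member spots saturated in both channels lie at mean log2 signals of 16.93 to 17.9 over the 3 arrays.

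Of the 10 genes, 2 had both a saturated and an unsaturated probe, which allowed the 2 kinds to be compared within a gene. The unsaturated probes were far dimmer, with processed signals of 505 to 1421 for Tnnt2 and 2240 to 4819 for Tpm1. Those of the saturated probes were 104607 or more and 129207 or more. The unsaturated Tnnt2 probe is also assigned to a cDNA clone. Whether the 2 probes of a gene read the same transcripts was not tested. For Tpm1 the saturated probe was lower by 0.61, 0.40 and 0.08 on arrays 1, 2 and 3, a mean difference of -0.37 ± 0.27 (SD, n = 3 arrays). For Tnnt2 the difference was 0.68, -1.06 and -1.16, with a mean of -0.51 ± 1.03 (SD, n = 3 arrays). These are descriptions, since the saturated side is set by the processing terms and an exact two-sided sign-flip permutation test cannot give a p below 0.25 with 3 arrays. Without array 1, 2 or 3 the Tnnt2 mean was -1.11, -0.24 and -0.19, and the Tpm1 mean was -0.24, -0.35 and -0.51. For Tnnt2 it was -0.18 with normexp and loess, -0.12 with unnormalized signals centred on the median and 0.035 with normexp and median centring. The Tpm1 mean was -0.63, -0.58 and -0.54 under the same settings. For the whole array a probe counted as saturated if any channel of any array was. The saturated Tnnt2 and Tpm1 probes were so in both channels of all arrays, so the genes compared differ in degree of saturation. Over the 66 genes of the array with both kinds of probe, the mean difference was below 0 in 41, below 0 on all arrays in 19 and above 0 on all arrays in 10, with a median of -0.08. Tpm1 lay at the lower quartile of these genes (-0.37), and Tnnt2 lay below it.

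**Figure D5:**
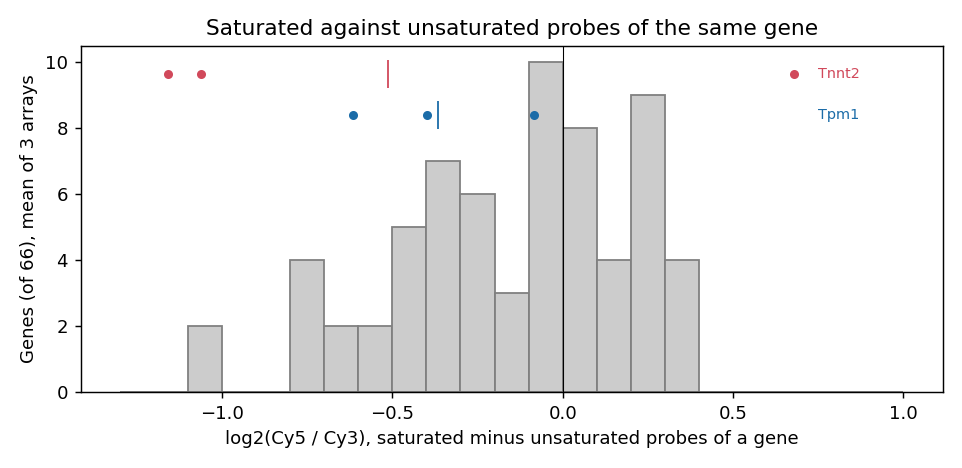
Number of genes (y axis, 66 in all) by the mean over 3 arrays of the log2 ratio of saturated minus unsaturated probes (x axis), with the single arrays (points) and means (ticks) of Tnnt2 and Tpm1 drawn above at heights without meaning. A probe counts as saturated here if any channel of any array was. The 3 points of Tpm1 lie below 0, and those of Tnnt2 lie on both sides of it.

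The rest of the thin filament was read from 27 further genes, among them the skeletal troponins, Tpm4, Acta1, nebulin and its relatives, the capping proteins and alpha-actinin 2. Of their 50 probes 43 passed the signal minimum, and limma called 0 of them in either direction, with 2 passing p under 0.05 before adjustment, beside 3.07% of all probes. Over the 3 arrays 6 of the 43 were always brighter in Cy5 and 4 always in Cy3, close to the 10.0% and 11.0% of all probes. The repeated selection took 2 of them in Cy3 and 0 in Cy5, where 0.511% and 0.406% of all probes were taken. The largest mean difference was that of Tmod3, the widely expressed tropomodulin, at -1.24, -0.73 and -1.37 on arrays 1, 2 and 3, brighter in Cy3 on each (mean -1.12 ± 0.34, SD, n = 3 arrays; limma, unadjusted p = 0.0033, adjusted p = 1.00). Xirp2, an actin-binding protein of the intercalated disc, was above 0 on all arrays at 0.16, 0.56 and 1.17, with a mean of 0.63 ± 0.51. Lasp1, an actin-binding scaffold protein, had 0.08, -0.26 and -1.68.

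Ratios of cell type markers differed between the arrays. All 11 ventricular cardiomyocyte markers cleared the background in every channel of every array, and the median log2 ratio of their 21 tested probes was -0.06, -0.48 and 0.29 on arrays 1, 2 and 3. Over the 13 of these that were unsaturated it was 0.03, -0.63 and 0.57. Of the 12 unsaturated thin filament probes, 7 were lowest on array 2, among them Lmod2, Tnnc1 and both probes of Tmod1 and Tpm2. Another 4 were highest on it, namely both Tnni1 probes, Tpm1 A_52_P44949 and Tpm3 A_52_P661033. Arrays 1 and 3 also held the highest value of 4 probes each. The atrial transcripts Sln (sarcolipin) and Myl7 (atrial light chain) had log2 ratios of 0.08 and -0.21 on array 1, 3.69 and 3.41 on array 2, and -1.15 and -1.27 on array 3. Nppa (atrial natriuretic peptide) had -1.44, -0.82 and -0.25, below 0 on each (limma, unadjusted p = 0.0094, adjusted p = 1.00), and the median of the 12 tested atrial probes was -0.13, 0.38 and -0.26. The thick filament list had medians of -0.39, -0.38 and 0.35. Among its 28 probes 6 were brighter in Cy3 and 0 in Cy5 on all arrays, where 11.0% and 10.0% of all probes were. Of its 21 unsaturated probes 1 was brighter in Cy3 on all arrays, beside 10.8% of all unsaturated probes, and it was that of Myh7 (beta-myosin heavy chain; -2.14, -3.45 and -0.90, limma adjusted p = 0.84). In pooled tissue, fewer cells of a type and less RNA per cell cannot be told apart.

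Markers of other cells also moved between arrays. The summed signal of the 8 atrial markers, of which Bmp10 was never well above background, ran from 80693 to 127615 in Cy3 and from 47294 to 90137 in Cy5. The 9 smooth muscle markers summed to 70128 to 128541 and 61409 to 106406, and the 12 skeletal muscle markers, Actn3 never above background, to 113970 to 346852 and 144689 to 216702. The 7 fibroblast markers summed to 124834 to 195162 and 127988 to 200574, and the 5 endothelial ones to 21760 to 45199 and 20224 to 28278. Red blood cell markers (4 of 5 on the array) summed to 207787 to 287204 and 216839 to 352163, and fat markers (7 of 8 on the array, Lep never above background) to 181211 to 218060 and 170602 to 252920. Over the arrays these ranges overlapped between channels for every list, but within each array the sums of the ventricular markers, saturated probes included, and of the atrial markers were higher in Cy3. The other lists had sums higher in Cy3 on 1 or 2 of the 3 arrays. On all arrays 3 of the 14 tested smooth muscle probes were brighter in Cy5 and 0 in Cy3, and of the 15 skeletal muscle probes 0 were brighter in Cy5 and 3 in Cy3, beside 10.0% and 11.0% of all probes. These counts were 1 and 2 of 12 atrial probes, 0 and 1 of 7 red blood cell probes, 0 and 1 of 8 fat probes, and 0 in both directions of 12 fibroblast and 8 endothelial probes. The median log2 ratio of the smooth muscle probes was 0.34, -0.33 and 0.49 on arrays 1, 2 and 3, and that of the skeletal muscle probes was 0.08, -0.30 and -0.02. The sums of atrial, skeletal muscle and fat markers were mostly those of 1 gene each, Nppa (76253 to 120124 in Cy3), Myh4 (97647 to 284576 in Cy3, with saturated spots) and Fabp4 (180706 to 217606 in Cy3, with saturated spots), so they say little of the other markers. The median log2 ratio of the fat markers was 0.45, -0.18 and -0.92 on arrays 1, 2 and 3, and 0.99, -0.23 and -1.04 over the unsaturated ones. The part of all these markers in the thin filament values was not tested.

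The genes whose ratios came nearest to the thin filament over the 3 arrays were found from the median of the 12 unsaturated members, 0.12, 0.05 and 0.16 on arrays 1, 2 and 3. Among 25534 unsaturated probes well above background, those of Tgoln2, N4bp2, Serpina1c, Ccdc41 and Arl8b lay nearest, at distances of 0.012 to 0.042 on the log2 scale, and 66 probes lay within 0.1. A pattern this close to 0 is shared by many probes and singles out no gene.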

How the data were processed

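Heart RNA was measured on 3 two-colour Agilent arrays, all from the same slide and scan, so no batch could be tested. The authors deposited Agilent Feature Extraction 9.1.3.1 output: mean signal intensities, processed intensities, the log10 ratio of processed Cy5 over Cy3, its p-value for each spot, and the ratio-scale detrending surface. The deposited series table repeats these log10 ratios. Here log10 ratios were put on the log2 scale, control and outlier spots (11, 21 and 4) left out, spots of a probe averaged, and probes with a geometric mean processed signal of at least 20 fitted in limma 3.58.1 (R 4.3.3; intercept, eBayes with intensity trend, two-sided, Benjamini-Hochberg). The fit was tested on simulated data. Alternatives were other background corrections and normalizations, signal minimums, saturated or outlier spots, eBayes without trend, the methods' t-test and leaving out each array. Median processed signals lay between 124.8 and 174 over arrays and channels, and the number of arrays limits precision.

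The members and the gene lists were chosen with earlier results of these data known. Named genes were all member probes, Lrrc10, up to 3 genes per other list with the largest mean ratio among unsaturated probes well above background, and the 5 genes nearest in pattern. Some marker genes were also named because they made up most of a sum or were never above background. Of the 17 member probes 15 matched a RefSeq transcript by accession, with the same symbol in each. The arrays name no genome build, so no coordinates are given.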

Additional observations from a re-analysis of the deposited data

How the results depend on the processing

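No setting gave a limma call among the thin filament probes, and the lowest adjusted p over the settings was 0.083, under normexp with median centring. A signal minimum of 50 or none, eBayes without the trend, outlier spots kept, saturated probes left out and the values of the series table turned the direction of 0 probes. Normexp with loess gave a median of -0.49 over the members with saturated spots and turned Tnni1 A_52_P657360 (0.0016) and Tpm3 A_52_P661033 (0.056). Normexp with median centring moved the medians to 0.23 over all members, -0.0073 over those with saturated spots and 0.42 over the unsaturated ones, left 0 members in the repeated selection in Cy3, 8 brighter in Cy5 and 0 brighter in Cy3 on all arrays, and turned the Tnnt2 difference between probes (0.035), Tnni3 A_51_P386983 (0.034), Tnni1 A_52_P657360 (0.13), Tpm3 A_52_P661033 (0.48), Actc1 (0.23) and Tmod1 A_51_P297069 (0.28). Unnormalized signals centred on the median gave 0 members in the selection in Cy3, 4 brighter in Cy5 on all arrays, an unsaturated median of 0.18, and 0.12 and 0.21 for the same Tnni1 and Tpm3 probes. With saturated probes left out, 0 members were selected and 0 were brighter in Cy3, since those probes were the saturated ones. The methods' t-test passed 2 members in Cy3 at its threshold before adjustment (2.2% of all tested probes) and 0 after Benjamini-Hochberg. Selection by fold change alone took 2 in Cy3 (1.95% of all). Both times they were Tnnt2 A_51_P338262 and Tnni3 A_52_P563123, which were saturated in both channels of all arrays. The Lrrc10 ratio kept its value of 5.37 but not its call with no signal minimum, where 41142 probes were tested (adjusted p = 0.98).

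Leaving out each array in turn gave 3 to 6 members brighter in Cy5 and 5 to 6 in Cy3 on the remaining arrays, where 21.9% to 25.7% and 22.3% to 26.3% of all tested probes were, 0 to 1 selected in Cy5 (1.94% to 3.91% of all) and 1 in Cy3 each time (1.49% to 2.24%), unsaturated medians of 0.021 to 0.081, and Lrrc10 ratios of 5.23 to 5.60, with the Lrrc10 call lost without array 2 (adjusted p = 0.097). Calls over all probes rose to 377 in Cy5 and 134 in Cy3 without array 3, and to 10 in Cy5 with unnormalized signals centred on the median. Probes that turned in some of these fits ranged from -0.46 to 0.61 (Tnnt2 A_52_P430110), -0.26 to 0.24 (Tnni1 A_51_P435704), -0.21 to 0.031 (Tnni1 A_52_P657360), -0.025 to 0.13 (Tpm1 A_52_P44949), -0.24 to 0.064 (Tpm3 A_52_P661033), -0.38 to 0.053 (Actc1), -0.028 to 0.40 (Tmod1 A_51_P297068) and -0.20 to 0.23 (Tmod1 A_51_P297069). The causes were not tested. Each ratio is taken within an array, so the tests already pair the genotypes and no further replicate block could be fitted. Saturation, not background, limited the Tnnt2, Tnni3 and Tpm1 probes at the top of the scale.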

Other observations

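Outside the rule by gene name, the array holds 2 probes that it describes as tropomyosin alpha-1 under transcript identifiers only, chosen here after their values were seen. Probe A_51_P325173 was saturated in both channels of all arrays and had log2 ratios of -0.65, -0.36 and -0.34. Probe A_51_P378371 was unsaturated and had 0.30, 0.62 and -1.28, with no shared direction. In the RefSeq table (GRCm38.p6) Tnnt2 and Tnni1 are close neighbours, with 1 protein-coding gene between them.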
